A study of Mus musculus with 5 samples.

Results

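The nuclear receptors are the ligand-regulated and orphan transcription factors that carry a zinc-finger DNA-binding domain, and 34 of their genes were followed in mouse kidney. They were taken by gene symbol from the 54532 gene IDs listed in the deposited count table, and 32 of the 34 passed the filter on low counts, among 16226 genes that did so. Kidney RNA was sequenced from male wild-type C57BL/6J mice, an inbred strain, that were 8 weeks old. In the vehicle group (3 libraries) vehicle alone was injected intraperitoneally once a day for 3 days. In the DMXAA group (2 libraries) the injections held DMXAA at 10 mg/kg on the same schedule. Kidneys of both groups were taken on day 3. DMXAA binds and switches on STING of the mouse, a membrane protein that links DNA sensing in the cytosol to interferon induction, so the comparison asks how receptor transcripts stood in kidneys after repeated STING activation. Whether the libraries are from different mice is not stated in the labels, and p-values therefore measure the spread between these libraries.

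Nuclear receptors bind short DNA elements built from copies of a half-site, as monomers, homodimers or heterodimers with a retinoid X receptor (RXR), and exchange corepressors for coactivators when a ligand binds. In kidney, HNF4-alpha maintains the proximal tubule programme, PPAR-alpha drives fatty acid oxidation in proximal tubule, FXR senses bile acids, the estrogen-related receptors serve oxidative metabolism, and the mineralocorticoid receptor mediates the action of aldosterone in the distal nephron. The NR4A receptors are immediate-early genes whose transcription responds within minutes to handling, stress and cyclic AMP.

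Total counts were 17667490 to 20264228 per library. When counting error alone is considered, a count of 0 allows up to 3 counts. Those correspond to 0.148 to 0.170 CPM, here the count scaled to library size without TMM factors. All other CPM values are scaled to library size and TMM-normalised. Vehicle library 1 stood apart in transcripts of neighbouring tissue and in some of kidney itself. The 5 adipocyte markers summed to 161 CPM in it and to 0.166 to 2.88 CPM in the other libraries, with Adipoq, an adipocyte hormone, at 36.8 CPM in it and at 0 counts in both DMXAA libraries. The 8 urothelium markers summed to 188 CPM in it and to 2.67 to 23.7 CPM elsewhere, with the epithelial keratin Krt19 at 27.2 CPM in it and at 0.846 to 3.05 CPM elsewhere. Among kidney markers, the 5 of collecting duct summed to 1022.5 CPM in it and to 411 to 520 CPM elsewhere. Aqp2, named after its value was seen, was highest in it (774 CPM, 217 to 327 CPM elsewhere), and Scnn1g was lowest (41.7 CPM). The 4 thick ascending limb markers summed to 4426 CPM in it and to 4748 to 7701 CPM elsewhere. Their part in the receptor results was not tested. Estimates of receptor genes that change sign or move by over 1.5 times without that library are given with and without it. The 4 red cell markers (haemoglobin genes and Alas2) summed to 267, 160.0 and 70.05 CPM in the vehicle libraries and to 49.4 and 28.4 CPM in the DMXAA libraries. All 4 lay lower in both DMXAA libraries than in any vehicle library, as did 12.3% of all genes tested. The median log2 fold change of these 4 was -2.09, and their part in the receptor results was not tested. All 9 proximal tubule markers had counts, and their summed level was 6950 to 8986 CPM under vehicle, and the DMXAA libraries had 9306 and 9742 CPM. Those with the smallest p in edgeR were the sodium-coupled transporters Slc5a12 (log2 fold change 0.70) and Slc5a2 (0.64) and the endocytic receptor Cubn (0.32). DESeq2 called 2 of the 9 higher, Slc5a12 (adjusted p 0.00014) and Slc5a2 (0.0173), and 0.325% of all genes with an adjusted p there. For 5 of the 9 both DMXAA libraries lay above vehicle, as they did for 13.7% of all genes tested. The other 4 overlapped, among them Slc22a7 at -0.48, named after its value was seen. In bulk kidney RNA, fewer cells of a type and less RNA per cell cannot be told apart.

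Across the 32 receptor genes tested, 0 were called by edgeR's quasi-likelihood test at an adjusted p below 0.05, as were 0% of all genes tested. The smallest adjusted p of a receptor gene was 0.583. At an unadjusted p below 0.05, 4 receptor genes were higher in DMXAA (Ppara, Nr1h4, Esrrb and Rora), where 3.89% of all genes were, and 1 was lower (Nr4a1), where 2.65% of all genes were. Among fits that left out 1 library, Esrrb was under that p only without vehicle library 3, and without DMXAA library 1 Rora (0.0622) and Nr4a1 (0.0717) were above it. Without vehicle library 1, Nr3c1 (0.0132) and Nr2c2 (0.0128) were under it, and without vehicle library 2, Esrra (0.0325, higher), Thra (0.00915), Rarg (0.0148) and Pparg (0.0428, all lower) were. DESeq2 called 2 of the 30 receptor genes to which it gave an adjusted p, Ppara and Nr1h4, both higher. Of all genes with an adjusted p there, 0.325% were called higher. In 7 receptor genes both DMXAA libraries lay above all 3 vehicle libraries (Ppara, Nr1h4, Thrb, Esrrb, Hnf4g, Nr2c2 and Rora), against 13.7% of all genes. In 2 receptor genes both lay below (Thra and Nr4a1), against 12.3% of all genes, and in the other 23 tested the groups overlapped. The median log2 fold change of the 32 was 0.04, beside -0.01 for all genes tested. A filter on low counts admits scarce genes more readily where a group is high, so these counts describe the genes that passed and support nothing further.

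**Figure D1:**
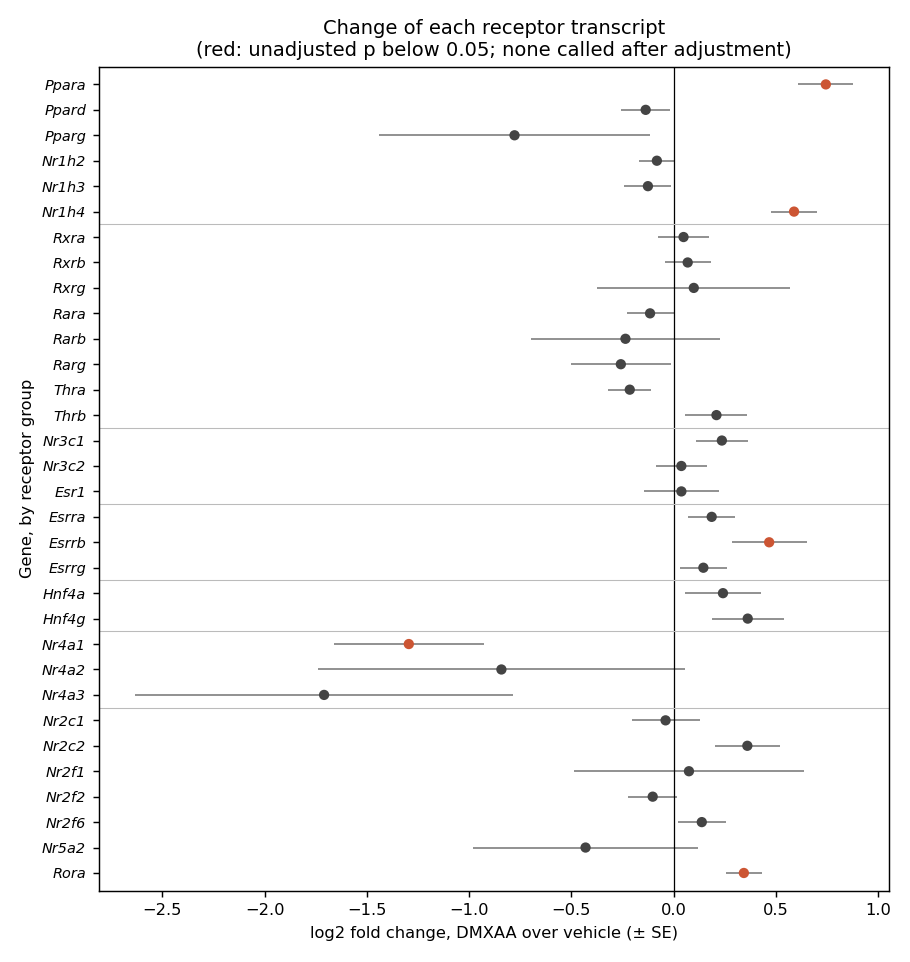
Log2 fold change of 32 nuclear receptor genes, DMXAA over vehicle, with bars of 1 standard error; grey lines separate receptor groups. Ppara (0.74) and Nr1h4 (0.59) lie farthest to the right with short bars, while Nr4a3 (-1.71) and Nr4a1 (-1.29) lie farthest to the left and the bar of Nr4a3 is long.

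The 3 upstream sequences below are shown for the reasons given with each. They are the 250 bases before a RefSeq transcript start, from the RefSeq GRCm38.p6 promoter table, printed 5′ to 3′ in the direction of the gene, and that table held windows for 31 of the 34 genes. Capitals mark, on either strand, the receptor half-site AGGTCA, the cyclic AMP half-site TGACG and the GC box GGGCGG. Nr1h4 is shown because DESeq2 called it, and its window holds the half-site its own protein family binds. The window lies at chr10:89506659-89506908 on the minus strand, wholly within an intron of longer GENCODE transcripts of the gene.
Nr1h4: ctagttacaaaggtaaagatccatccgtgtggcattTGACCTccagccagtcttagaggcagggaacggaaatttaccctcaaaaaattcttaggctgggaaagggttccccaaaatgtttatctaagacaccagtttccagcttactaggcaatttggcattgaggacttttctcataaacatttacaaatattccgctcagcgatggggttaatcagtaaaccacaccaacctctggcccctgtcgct
Nr4a1 and Nr4a2 are shown to compare members of 1 family. The Nr4a1 window lies at chr15:101266596-101266845 on the plus strand, also within an intron of longer transcripts, and the Nr4a2 window at chr2:57124004-57124253 on the minus strand, before the annotated gene.
Nr4a1: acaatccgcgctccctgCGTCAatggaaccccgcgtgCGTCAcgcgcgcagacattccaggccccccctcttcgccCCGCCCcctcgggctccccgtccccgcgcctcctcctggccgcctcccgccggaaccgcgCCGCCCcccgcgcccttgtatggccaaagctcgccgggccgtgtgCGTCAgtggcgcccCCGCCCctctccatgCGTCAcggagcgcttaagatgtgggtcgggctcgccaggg
Nr4a2: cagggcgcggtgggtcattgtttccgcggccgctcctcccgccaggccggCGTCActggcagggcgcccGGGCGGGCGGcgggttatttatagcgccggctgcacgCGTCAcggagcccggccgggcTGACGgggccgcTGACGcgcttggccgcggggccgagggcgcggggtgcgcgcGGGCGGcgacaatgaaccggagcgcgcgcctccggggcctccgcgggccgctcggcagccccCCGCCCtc
The half-site in Nr1h4 runs from 214 to 209 bases before the start. Several genes have more than 1 window, and it was found in 8 of the 51 receptor windows (15.7%; Nr1h4, Nr5a2, Pparg, Rarg, Rxra, Rxrg and Thrb), beside 14% of 32536 windows of the same length over all genes. The cyclic AMP half-site was found 4 times each in the windows of Nr4a1, Nr4a2 and Nr4a3. It was present in 10 of the 51 receptor windows (19.6%), those of Ppara and Esrrb among them, and in 17.9% of all windows. GC boxes were found 3 times in the Nr4a1 window and 4 times in that of Nr4a2, where a pair of them overlap, and 24 of the 51 receptor windows (47.1%) and 33% of all windows held one. The E-box CACGTG was found in the windows of Nr1i3, Rara and Thrb and in 6.04% of all windows. The interferon-stimulated response element core GAAANNGAAA was found in an Esr1 window and in 2.98% of all windows. No receptor window held the full cyclic AMP element TGACGTCA, which 1.56% of all windows held. Half-site pairs with 1 base between them, as direct repeats (0.0338% of all windows) or inverted repeats (0.00615%), were in none of the receptor windows either. A match describes letters only, and the absence of one says only that those letters are not in that window.

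Levels between genes were compared per kilobase of annotated exons, over all 5 libraries. Hnf4a, the nephron and liver factor, was the most abundant at a mean of 187 CPM per kilobase (137 to 219 over the libraries), followed by Nr1h4 at 58.0, Esrra at 40.1, Rxra at 32.2, Nr2f6 at 26.5, Nr1h2 at 24.7, Nr1h3 at 19.1 and Ppara at 16.9. Nr3c1, Thra, Esrrg and Rxrb came next at 15.5 to 13.99 CPM per kilobase, then Nr2f2 at 10.1 and Esrrb at 8.63. Of the 33 pairs of neighbours in the order of means, 30 had overlapping ranges over the libraries. The 3 steps without overlap were those from Hnf4a to Nr1h4, from Nr1h2 to Nr1h3 and from Rxrb to Nr2f2. The lowest were Nr5a2 at 0.111, Rorb at 0.0373 and Nr1i3 at 0.0198 CPM per kilobase.

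**Figure D2:**
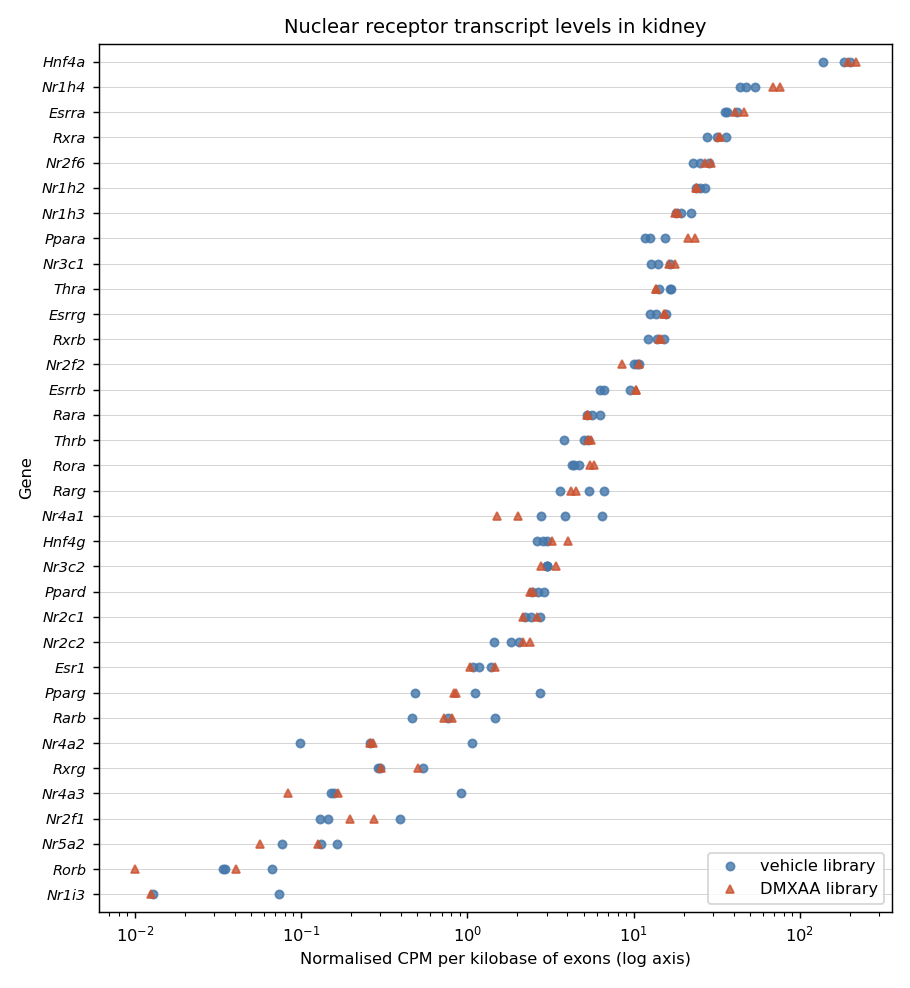
Normalised CPM per kilobase of exons for 34 nuclear receptor genes on a log axis, ordered by mean, with 3 vehicle libraries as circles and 2 DMXAA libraries as triangles; libraries with 0 counts are not drawn. Levels run from 187 for Hnf4a to 0.0198 for Nr1i3, most neighbours overlap, and the triangles stand to the right of the circles for Nr1h4 and Ppara.

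The lipid and bile acid sensors held the receptor genes with the smallest p. Ppara (ENSMUSG00000022383, chr15:85734983-85802819, mm10) encodes PPAR-alpha, the fatty acid sensor that induces fat oxidation. It was at 48.1, 45.1 and 59.6 CPM in the vehicle libraries and at 81.2 and 89.3 CPM in the DMXAA libraries. Both DMXAA libraries were above the highest vehicle library, and the means were 50.9 ± 7.64 (SD, n = 3) and 85.3 ± 5.70 CPM (SD, n = 2). The difference was 1.67-fold, or 0.74 on the log2 scale (SE 0.13), with an unadjusted p of 0.00102 and an adjusted p of 0.583 in edgeR. DESeq2 gave Ppara an adjusted p of 0.00434, and edgeR without an expression filter, where 0.103% of all genes were called higher, gave 0.0402. Leaving out any vehicle library left the DESeq2 adjusted p between 0.000427 and 0.00925, while leaving out either DMXAA library ended the call, with 0.340 and 0.99998. Over 14 alternatives, not counting DESeq2 with a library left out, the log2 fold change stayed between 0.67 and 0.87, and adjusted p ran from 0.00434 to 0.99999.

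Nr1h4 (ENSMUSG00000047638, chr10:89454234-89533585, mm10), whose upstream window is printed above, encodes the bile acid receptor FXR. Its levels were 101, 123 and 109 CPM under vehicle, and the DMXAA libraries had 159.7 and 175 CPM, so the groups were separate here too. Means were 111 ± 11.1 (SD, n = 3) and 167 ± 10.6 CPM (SD, n = 2). The log2 fold change of Nr1h4 was 0.59 (SE 0.11), with an unadjusted p of 0.00131 and an adjusted p of 0.620 in edgeR. The adjusted p from DESeq2 was 0.00739. That call was lost without vehicle library 3 (0.207), without DMXAA library 1 (0.477) and without DMXAA library 2 (0.99998). It ranged on that scale from 0.52 to 0.67 over the same 14 alternatives, with adjusted p from 0.00739 to 0.99999. The summed proximal tubule markers given above were also higher in both DMXAA libraries than in any vehicle library, and their part in the values of Ppara and Nr1h4 was not tested.

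**Figure D3:**
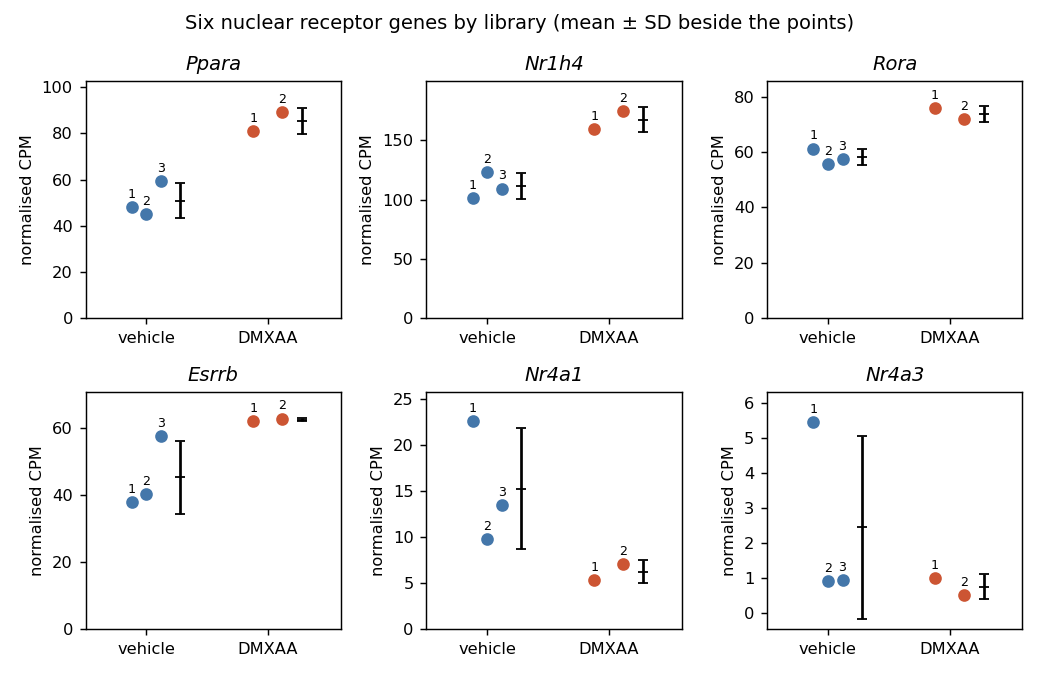
Normalised CPM of Ppara, Nr1h4, Rora, Esrrb, Nr4a1 and Nr4a3 in each library, numbered by replicate, with mean and SD beside the points. DMXAA points lie above all vehicle points in the first 4 genes and below them in Nr4a1, and the Nr4a3 mean in vehicle is raised by library 1 at 5.46 CPM.

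The paralogues of Ppara had estimates below 0. Ppard, the broadly expressed PPAR-delta, was at 21.7, 19.9 and 18.5 CPM in vehicle and at 17.8 and 18.7 CPM in DMXAA (log2 fold change -0.14, SE 0.12; -0.08 without vehicle library 1). For Ppard, DMXAA library 1 lay below the lowest vehicle library and DMXAA library 2 just above it. Pparg, the adipocyte master regulator, was at 8.11, 1.42 and 3.27 CPM in vehicle and at 2.44 and 2.54 CPM in DMXAA. Vehicle library 1, the one with 161 CPM of adipocyte markers, had the highest Pparg level, and the log2 fold change of -0.78 became 0.08 without it. Per kilobase, Ppara made up 69.0% to 81.3% of the summed PPAR level in vehicle and 86.9% and 87.4% in DMXAA. The LXR genes encode oxysterol receptors. The widely expressed Nr1h2 was at 84.4, 89.6 and 80.0 CPM in vehicle and at 80.5 and 79.5 CPM in DMXAA (log2 fold change -0.08, SE 0.09). Nr1h3 was at 45.0, 55.8 and 48.5 CPM in vehicle and at 44.4 and 46.8 CPM in DMXAA (-0.13, SE 0.12; -0.20 without vehicle library 1). Both LXR genes overlapped between groups. Nr1i3, the xenobiotic receptor CAR, had 6, 1 and 0 counts in vehicle and 1 and 0 in DMXAA and was not tested. Of its 4414 exonic bases, 3304 are shared with the protein-coding gene Tomm40l on the opposite strand.

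The heterodimer partners overlapped between groups. Rxra, the main RXR of kidney here, was at 151, 196 and 174 CPM in vehicle and at 179 and 180.4 CPM in DMXAA (log2 fold change 0.05, SE 0.13). Rxrb was at 48.3, 60.3 and 55.0 CPM in vehicle and at 56.6 and 57.8 CPM in DMXAA (0.07, SE 0.11). The DMXAA libraries lay inside the vehicle range for both. Rxrg was at 1.24, 0.682 and 0.666 CPM in vehicle and at 1.17 and 0.696 CPM in DMXAA (0.10, SE 0.47). Without vehicle library 1 the estimates were -0.05 for Rxra, -0.02 for Rxrb and 0.45 for Rxrg. Rxra held 68.5% to 69.9% of the RXR level per kilobase in the 5 libraries.

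The retinoic acid receptors had estimates below 0, with wide errors for Rarb and Rarg. Rara was at 23.0, 27.6 and 24.5 CPM in vehicle and at 23.3 and 22.9 CPM in DMXAA (log2 fold change -0.12, SE 0.11; -0.18 without vehicle library 1). Rarg was at 28.4, 15.3 and 23.0 CPM in vehicle and at 19.2 and 18.0 CPM in DMXAA (-0.26, SE 0.25). Without vehicle library 1 its log2 fold change was -0.05. Rarb was at 7.73, 2.44 and 4.05 CPM in vehicle and at 3.83 and 4.23 CPM in DMXAA, and its estimate of -0.24 (SE 0.46) became 0.30 without vehicle library 1. Rarb shares 1793 of its 5265 exonic bases with Top2b on the opposite strand, and how reads on the shared bases were assigned is not known here.

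The thyroid hormone receptors pointed in different directions. Thra was at 76.6, 65.3 and 77.2 CPM in vehicle and at 62.5 and 63.3 CPM in DMXAA, with both DMXAA libraries below the lowest vehicle library. Its log2 fold change was -0.21 (SE 0.10, unadjusted p 0.0814, adjusted p 0.749 in edgeR). Thra shares 263 exonic bases with the clock repressor Nr1d1 on the opposite strand, which was at 104, 70.04 and 70.05 CPM in vehicle and at 63.6 and 48.4 CPM in DMXAA (-0.54, SE 0.21), and the part of that overlap in the Thra values was not tested. Thrb was at 39.4, 37.3 and 28.2 CPM in vehicle and at 41.2 and 39.6 CPM in DMXAA (0.21, SE 0.15). Its DMXAA libraries were above the vehicle libraries, by a small margin over vehicle library 1. Thra made up 73.7% to 81.5% of the pair per kilobase in vehicle and 70.9% and 71.9% in DMXAA.

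**Figure D4:**
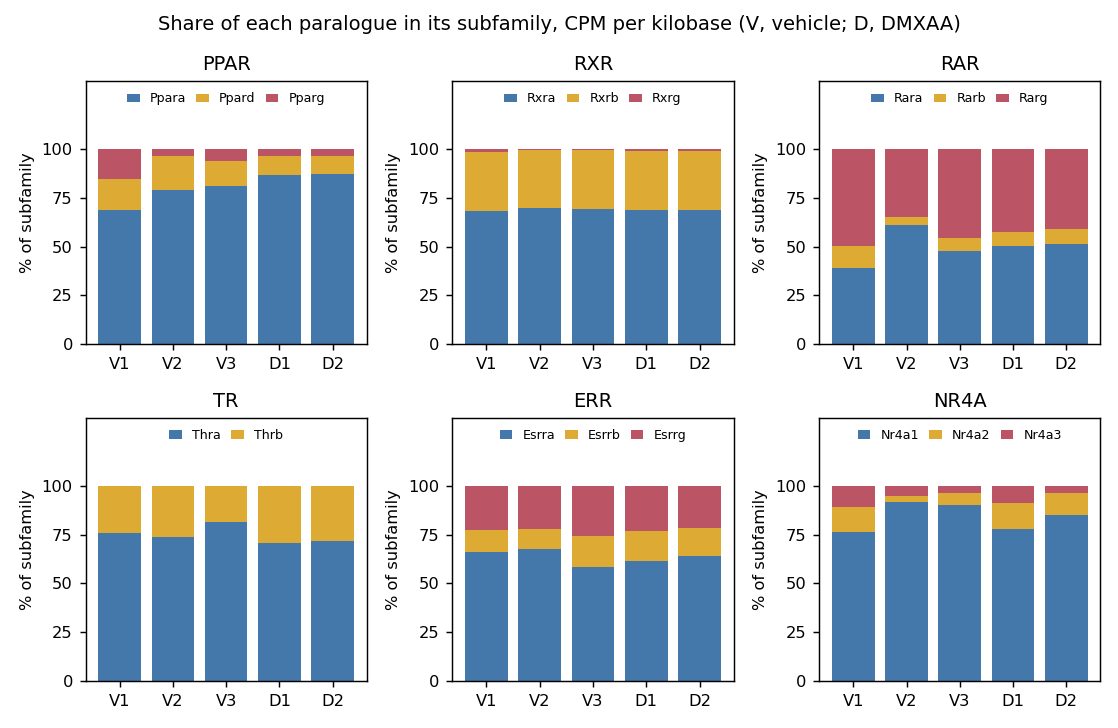
Share of each paralogue in the summed CPM per kilobase of its subfamily, in percent, stacked for 3 vehicle (V) and 2 DMXAA (D) libraries. Ppara takes 69.0% to 81.3% in vehicle and 86.9% and 87.4% in DMXAA, Rxra stays at 68.5% to 69.9%, and Pparg is largest in vehicle library 1 at 15.1%.

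The steroid receptor genes overlapped between groups. Nr3c1, the glucocorticoid receptor, was at 127, 98.2 and 108 CPM in vehicle and at 136 and 126 CPM in DMXAA (log2 fold change 0.24, SE 0.13, unadjusted p 0.104; 0.34 without vehicle library 1). Vehicle library 1 lay between the DMXAA libraries. Nr3c2, the mineralocorticoid receptor, was at 19.6, 19.6 and 19.5 CPM in vehicle and at 22.1 and 18.1 CPM in DMXAA, which lay on either side of vehicle. Esr1, estrogen receptor alpha, was at 14.8, 16.1 and 18.9 CPM in vehicle and at 19.9 and 14.2 CPM in DMXAA, again on either side. The log2 fold change was 0.04 for both Nr3c2 (SE 0.12) and Esr1 (SE 0.19), and that of Esr1 was -0.05 without vehicle library 1.

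The estrogen-related receptors, orphan activators of mitochondrial genes, had estimates above 0 in all 3 members. Esrrb (ENSMUSG00000021255, chr12:86361117-86521628, mm10) was at 37.8, 40.2 and 57.8 CPM in vehicle and at 62.3 and 62.9 CPM in DMXAA. The groups did not overlap, although vehicle library 3 came near the DMXAA libraries. The log2 fold change of Esrrb was 0.47 (SE 0.18) with an unadjusted p of 0.0401 and an adjusted p of 0.741 in edgeR, and without vehicle library 1 it was 0.35. Without vehicle library 3, the highest of its group, it was 0.68 and DESeq2 called Esrrb, with an adjusted p of 0.0438. Esrra was at 159, 184 and 156 CPM in vehicle and at 178 and 201 CPM in DMXAA (0.19, SE 0.11). Esrrg was at 77.5, 84.6 and 97.3 CPM in vehicle and at 95.0 and 96.2 CPM in DMXAA (0.15, SE 0.11; 0.07 without vehicle library 1). Both overlapped between groups.

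The HNF4 pair also had estimates above 0. Hnf4a was at 662, 969.7 and 895 CPM in vehicle and at 935 and 1055 CPM in DMXAA (log2 fold change 0.24, SE 0.18). Vehicle library 1 was the lowest, vehicle library 2 lay between the DMXAA libraries, and without vehicle library 1 the Hnf4a estimate was 0.09. Hnf4g, its less abundant paralogue, was at 7.51, 7.90 and 6.93 CPM in vehicle and at 10.7 and 8.51 CPM in DMXAA, with no overlap (0.36, SE 0.18, unadjusted p 0.0818). Hnf4a accounted for 98.0% to 98.6% of the pair per kilobase in the 5 libraries.

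With all 5 libraries the NR4A genes had the lowest estimates of the 32. Nr4a1 (ENSMUSG00000023034, chr15:101254269-101274795, mm10), which encodes NUR77 and whose upstream window is printed above, was at 22.6, 9.78 and 13.5 CPM in vehicle and at 5.33 and 7.11 CPM in DMXAA. Both DMXAA libraries were below the lowest vehicle library, with means of 15.3 ± 6.598 (SD, n = 3) and 6.22 ± 1.26 CPM (SD, n = 2). The log2 fold change of Nr4a1 was -1.29 (SE 0.37), with an unadjusted p of 0.0103 and an adjusted p of 0.724 in edgeR and 0.0946 in DESeq2. It was -0.91 without vehicle library 1, and over the same 14 alternatives it ranged from -1.53 to -0.91 with adjusted p from 0.0946 to 0.99999. Without vehicle library 2 DESeq2 called Nr4a1 lower, with an adjusted p of 0.000918.

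Nr4a2 and Nr4a3 rested on vehicle library 1. Nr4a2 was at 4.33 CPM in that library, at 0.398 and 1.05 CPM in the other vehicle libraries and at 1.05 and 1.09 CPM in DMXAA. Its log2 fold change of -0.84 (SE 0.90) was 0.55 without that library. Nr4a3 was at 5.46, 0.910 and 0.943 CPM in vehicle and at 0.999 and 0.497 CPM in DMXAA, and its estimate of -1.71 (SE 0.93) was -0.32 without vehicle library 1. The 17 immediate-early genes listed beside the NR4A family summed to 411, 453 and 579 CPM in vehicle and to 331 and 388 CPM in DMXAA. Within vehicle that sum was lowest in library 1, where all 3 NR4A genes were highest. Of the 15 tested, 7 were lower at an unadjusted p below 0.05 and none higher, 14 had estimates below 0, and the median log2 fold change was -0.59. Those with the smallest p were the growth inhibitor Btg2 (-0.74), the zinc-finger factor Klf6 (-0.43) and the AP-1 subunit Junb (-0.94). The labels give no time of day or handling for the harvest, and their part in these values was not tested.

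Among orphan receptors and RORs, Rora (ENSMUSG00000032238, chr9:68653786-69388246, mm10), which activates clock genes, had the smallest p. It was at 61.3, 55.8 and 57.6 CPM in vehicle and at 75.9 and 71.8 CPM in DMXAA. The groups were separate, with a log2 fold change of 0.34 (SE 0.09), an unadjusted p of 0.00655 and an adjusted p of 0.724 in edgeR. With offsets for transcript length and GC content the Rora estimate was 0.24. Rorb had 7, 13 and 7 counts in vehicle and 2 and 9 in DMXAA and was not tested. Nr2c2, the testicular receptor TR4, was at 30.7, 21.5 and 27.4 CPM in vehicle and at 32.3 and 35.8 CPM in DMXAA (0.36, SE 0.16, unadjusted p 0.0578; 0.47 without vehicle library 1). Its groups did not overlap, and 4590 of its 14935 exonic bases are shared with Mrps25 on the opposite strand.

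The remaining orphan receptors overlapped between groups. Nr2c1, the TR2 receptor, was at 12.7, 11.1 and 10.3 CPM in vehicle and at 9.99 and 12.1 CPM in DMXAA (-0.04, SE 0.17; 0.04 without vehicle library 1). Nr2f2 (COUP-TFII, a vascular and stromal regulator) was at 92.3, 86.3 and 90.5 CPM in vehicle and at 93.4 and 73.7 CPM in DMXAA (-0.10, SE 0.12). These DMXAA libraries lay on either side of vehicle for Nr2f2. Nr2f6 was at 67.9, 85.0 and 75.1 CPM in vehicle and at 80.2 and 87.0 CPM in DMXAA (0.14, SE 0.12; 0.06 without vehicle library 1), and shares 1622 of 2983 exonic bases with Ocel1 on the opposite strand. Nr2f1 was at 2.00, 0.739 and 0.666 CPM in vehicle and at 0.999 and 1.39 CPM in DMXAA. Nr5a2 was at 0.973, 0.455 and 0.776 CPM in vehicle and at 0.333 and 0.746 CPM in DMXAA. These last genes had low counts, 12 to 37 for Nr2f1 and 6 to 18 for Nr5a2, and standard errors of 0.56 (Nr2f1) and 0.55 (Nr5a2). Their estimates of 0.07 and -0.43 became 0.76 and -0.18 without vehicle library 1.

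Receptor genes outside the 34, coregulators and textbook targets were read from lists chosen by function, with earlier results known. In each list below edgeR called 0 genes, and DESeq2 called Cyp4a12a, Scd2 and Cyp26b1. Of 15 other receptor genes 10 were tested, with a median log2 fold change of 0.24, 1 higher at an unadjusted p below 0.05 and 1 lower. The lower one was Nr1d1, given beside Thra above. Vdr, the vitamin D receptor, was at 234, 273 and 231 CPM in vehicle and at 292 and 297 CPM in DMXAA (0.26, SE 0.11). All 19 coregulators were tested, with a median of 0.08 (0.02 without DMXAA library 1 and 0.03 without vehicle library 2), 4 higher at an unadjusted p below 0.05 and 0 lower. Examples were the corepressor Ncor1 (0.34), the metabolic coactivator Ppargc1a (0.31) and Ncoa4 (0.35).

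Targets of the receptors with the smallest p did not follow 1 direction. Of 25 PPAR-alpha targets tested the median was -0.05 (-0.11 without vehicle library 1 and 0.04 without vehicle library 2), with 1 higher and 1 lower at an unadjusted p below 0.05. The arachidonic acid hydroxylase Cyp4a12a was at 28.9, 37.4 and 28.5 CPM in vehicle and at 56.9 and 47.8 CPM in DMXAA (log2 fold change 0.73, SE 0.15, adjusted p 0.629 in edgeR and 0.0242 in DESeq2). Both DMXAA libraries of Cyp4a12a were above the highest vehicle library. Of 10 FXR targets tested 1 was higher, the canalicular transporter Abcc2 (0.32, SE 0.11), and 1 lower, the proteoglycan Sdc1 (-0.54, SE 0.17), with a median of 0.16. The bile acid transporter subunit Slc51a was at 0.64 (SE 0.35).

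The LXR targets had mostly negative estimates. Of 11 tested, 10 had estimates below 0, 3 were lower at an unadjusted p below 0.05 and none higher, and the median was -0.55. Without vehicle library 1, in which the lipogenic genes Fasn (312 CPM, 80.0 to 85.6 CPM elsewhere) and Scd1 (605 CPM, 267 to 311 CPM elsewhere) were highest, the median was -0.19. Both were named after their values were seen. The desaturase Scd2 was at 209, 211 and 192 CPM in vehicle and at 142 and 137 CPM in DMXAA (-0.55, SE 0.09, adjusted p 0.535 in edgeR and 0.000227 in DESeq2). Its groups were well apart. The lipogenic factor Srebf1 was at -0.55 (SE 0.14) and the cholesterol exporter Abca1 at -0.74 (SE 0.22). Of the 11 HNF4-alpha targets 3 were higher and 0 lower at that p, with a median of 0.23 (0.06 without vehicle library 1), among them the glucose phosphatase subunit G6pc (0.53) and the lipid transfer protein Mttp (0.30).

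**Figure D5:**
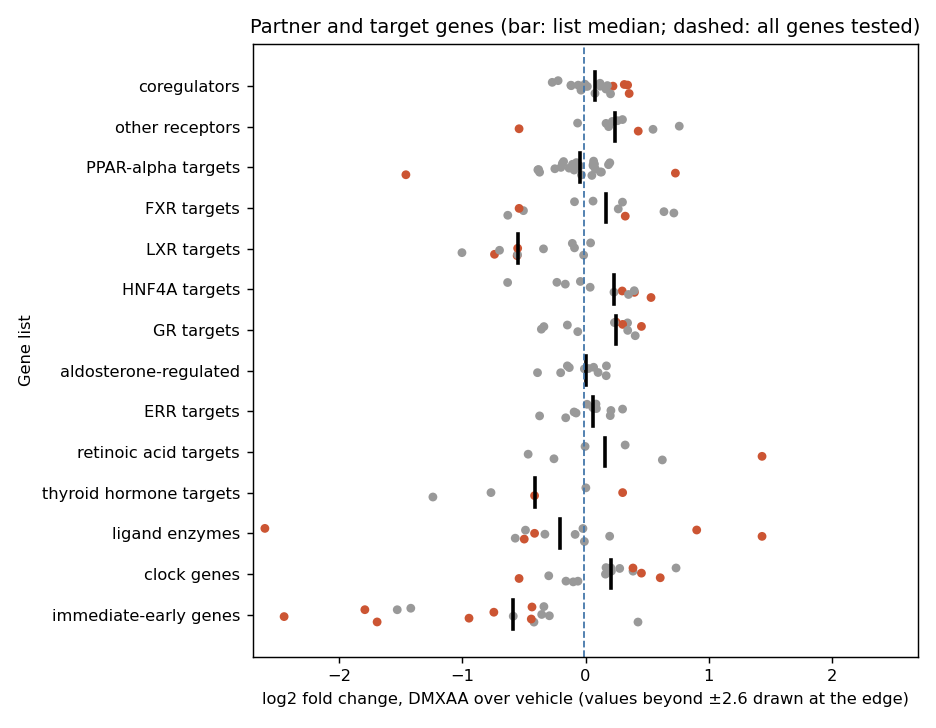
Log2 fold changes of the tested genes of each partner and target list, DMXAA over vehicle, with red points at an unadjusted p below 0.05, a black bar at the list median and a dashed line at the median of all genes tested (-0.01). The LXR targets (median -0.55, or -0.19 without vehicle library 1) and immediate-early genes (-0.59) lie mostly to the left. The ligand enzyme Aldh1a3, highest in vehicle library 1, lies below -2.6 and is drawn at the edge.

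Of 11 glucocorticoid targets tested 3 were higher at an unadjusted p below 0.05 and 0 lower, with a median of 0.25, which was 0.03 without DMXAA library 2 and 0.16 without vehicle library 1. They were the clock gene Per1 (0.45, SE 0.10), the factor Klf9 (0.30, SE 0.09) and the leucine zipper Tsc22d3 (0.25, SE 0.10). Clock genes overlap with that list at Per1. Of the 15 clock genes 3 were higher (Per1, Per2 at 0.61 and Hlf at 0.38) and 1 lower, Nr1d1, with a median of 0.21 (0.13 without DMXAA library 1). Of the 10 aldosterone-regulated genes and the 12 ERR targets 0 reached that p in either direction, with medians of 0.01 and 0.06 that ran, when each library was left out, from -0.12 (DMXAA library 2) to 0.13 (DMXAA library 1) and from 0.0092 (vehicle library 1) to 0.11 (DMXAA library 1). In the aldosterone list the smallest p were those of the kinase Sgk1 (-0.15), the sodium pump subunit Atp1b1 (0.17) and the channel subunit Scnn1g (-0.20), and the ERR list held Perm1 (0.30) and the angiogenic factor Vegfa (-0.16).

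Of 6 retinoic acid targets tested, 1 was higher at an unadjusted p below 0.05 and 0 lower, with a median of 0.16 that ran from -0.06 (without DMXAA library 2) to 0.25 when each library was left out. Cyp26b1, which degrades retinoic acid, was at 8.38, 16.7 and 8.54 CPM in vehicle and at 21.7 and 38.6 CPM in DMXAA (log2 fold change 1.43, SE 0.36, adjusted p 0.724 in edgeR and 0.0316 in DESeq2). Both DMXAA libraries were above vehicle and differed from each other. The retinol receptor Stra6 (0.62, SE 0.37) overlapped between groups. Of the 5 thyroid hormone targets, whose median was -0.41 and 0.31 without vehicle library 1, 1 was higher at that p (Klf9) and 1 lower, the deiodinase Dio1, at 28.2, 29.7 and 26.9 CPM in vehicle and at 19.5 and 23.0 CPM in DMXAA (-0.41, SE 0.12). Thrsp, a lipogenic gene, was at 56.8 CPM in vehicle library 1 and at 8.10 to 10.7 CPM elsewhere, so that its estimate of -1.24 became 0.31 without that library. Of 12 enzymes that make or remove receptor ligands 2 were higher and 3 lower at that p, with a median of -0.21 (-0.34 without DMXAA library 1 and -0.13 without vehicle library 3). Among the lower ones was Aldh1a3 (-4.25, SE 1.78), named after its values were seen. It was at 74.0 CPM in vehicle library 1 and at 1.19 to 4.44 CPM elsewhere, and its groups overlapped. Hsd11b1, which regenerates active glucocorticoid, was at 121, 66.9 and 96.7 CPM in vehicle and at 148 and 207 CPM in DMXAA (0.90, SE 0.25). Only 2 of 7 CAR and PXR targets were tested, with 0 at that p, and the efflux pump Abcb1a was at 0.05 (SE 0.27).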

How the data were processed

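The authors deposited a table of raw read counts per Ensembl gene, with a column per library. The submitters' processing notes name the build mm10 and the tools Subread, featureCounts, HISAT2 and DESeq2 1.16.1. Their roles, the annotation, strand setting and handling of multiply aligned reads: not given in the sources used here. Per the labels' protocols, RNA was extracted with Trizol, and both a TruSeq and a NEBNext kit are named without saying which library used which, so a kit batch cannot be told apart. Columns were assigned by name (CO as control, XA as DMXAA).

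Symbols came from GENCODE M21 (99.77% of IDs). Counts were fitted with edgeR 4.0.16 (quasi-likelihood F test, two-sided, TMM scaling, default expression filter, group as the only term) in R 4.3.3 over 16226 genes, with Benjamini-Hochberg adjustment over all of them and a call at an adjusted p below 0.05. The biological coefficient of variation was 19%. Levels are TMM-normalised CPM. Libraries differed pairwise by more than sampling noise (chi-square over its degrees of freedom 7.35 to 38.5). Deviations from group means correlated at 0.0748 and 0.0809 between libraries with the same replicate number (2 pairs). With 2 DMXAA libraries their deviations are opposites of each other. The 2 values are therefore not independent and cannot decide whether replicate numbers pair the libraries.

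The 34 genes and all lists were chosen with earlier results of these data known. Every one of the 34 is reported. Adipocyte, urothelium, collecting duct, thick ascending limb and red cell markers are given as sums, the red cell list also with its median and group separation. The remaining marker lists are not reported here. Of each functional list and of the proximal tubule markers, the up to 3 genes with the smallest p and a mean of at least 1 CPM are named. Adipoq and Krt19 are named too. Some genes under this rule are not reported here. Alternatives were DESeq2 1.42.0, RLE size factors, no filter, a filter of 1 CPM in 2 libraries, robust fitting, omission of mitochondrial genes with the top 20 genes by abundance, the replicate block, offsets for length and GC content, and each library left out. A bias-adjusted quasi-likelihood fit and DESeq2 without each library were added after seeing the data. The fits were tested on simulated data.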

Additional observations from a re-analysis of the deposited data

How the results depend on the processing

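With 2 DMXAA libraries, a difference rests on few samples, and leaving out a DMXAA library leaves 1, assumed to vary like vehicle. Receptor genes called numbered 2 with DESeq2 (0 to 3 when each library was left out) and 1 without an expression filter. With the replicate block, whose pairing the check made cannot decide, 2 receptor genes were lower at an unadjusted p below 0.05, as without a filter. In the fit without the block, leaving out each library gave 0 (DMXAA library 1) to 4 (vehicle library 2) lower genes. The higher count was then 2 (DMXAA library 1) to 5 and the median log2 fold change -0.013 to 0.061. The replicate block called 4 of all genes and turned Rxrg to -0.038 and Nr2f1 to -0.089. Length and GC offsets turned Nr3c2 to -0.036, Esr1 to -0.044 and the Abcb1a log2 fold change to -0.00897. When each library was left out, these log2 fold changes crossed 0: Pparg -1.19 to 0.077, Rxra -0.050 to 0.15, Rxrb -0.017 to 0.15, Rxrg -0.30 to 0.45, Rarb -0.54 to 0.30, Nr3c2 -0.11 to 0.18, Esr1 -0.22 to 0.26, Nr4a2 -1.32 to 0.55, Nr2c1 -0.18 to 0.10, Nr2f1 -0.20 to 0.76, Nr2f2 -0.28 to 0.060, Nr5a2 -1.13 to 0.027, Abcb1a -0.16 to 0.25, Scnn1g -0.36 to 0.0042 and Thrsp -1.66 to 0.31. The other tested receptor genes kept their direction under the alternatives that could fit them. The cause of these shifts was not tested.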
